A study of Homo sapiens with 24 samples.

Results

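The 39 genes described here encode the structural proteins of the extracellular matrix, the laminins and collagens of the basement membrane, and the enzymes and chaperone that modify and crosslink collagen. They were chosen by gene symbol from the 48162 genes listed for each library. By role they comprise 5 fibrillar collagen chains, 2 chains of type IV collagen, 2 epithelial anchoring collagens, 5 filament and short-chain collagens, 4 genes of fibronectin and elastic fibres, 9 matricellular, proteoglycan and stromal surface genes, 6 crosslinking genes and 6 laminin chains. The 6 crosslinking genes include SERPINH1, which encodes the chaperone. In the text, the type IV and anchoring collagens and the laminins make up 10 basement membrane genes, and the other 29 are called stromal genes.

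RNA-seq was collected from 24 libraries, 3 for each of 8 groups, made of 2 human pancreas lines under 4 treatments. HPNE (hTERT-HPNE) is a pancreas line immortalised with telomerase, and HPDE (HPDE-H6c7) is an immortalised line of pancreatic duct epithelium. The labels call both of them normal pancreas cells, and the series' title calls them epithelial. All cells were grown in keratinocyte serum-free medium in 24-well plates and then kept for 24 h under one of the treatments. Untreated cells received fresh serum-free medium. The negative control received the residual medium that remained once vesicles had been isolated. The other groups received 1e10 extracellular vesicles (EV) per well from either PANC-1 (derived from a pancreatic carcinoma) or PPCL-68, of which the labels say nothing further. The study asked how vesicles from pancreatic cancer cells alter cells of this kind, with the unfolded protein response in view. Each recipient is a single line, and the labels do not say that replicates were separate cultures, so p-values measure only the spread between these libraries, which may be technical.

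Fibrillar collagens I, III and V form the tension-bearing cables of connective tissue and are made mainly by fibroblasts and other mesenchymal cells. Their chains are hydroxylated and folded in the endoplasmic reticulum with the help of lysyl hydroxylases (PLOD genes) and the collagen chaperone encoded by SERPINH1, and are joined outside the cell by lysyl oxidases (LOX genes). Epithelial cells instead sit on a basement membrane, a sheet of laminin and type IV collagen, to which they are fastened by the hemidesmosomal collagen of COL17A1, by the anchoring fibrils of COL7A1 and by a laminin that contains the LAMA3 and LAMB3 chains. In pancreatic cancer a dense collagen-rich stroma surrounds the tumour cells, and periostin (POSTN), tenascin C (TNC) and fibronectin (FN1) are among its known components.

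Levels are given in FPKM, which divides reads by the length of the gene and by the depth of the library, so that genes can be compared with each other per length. Between 29874928 and 46490312 reads per library were assigned to genes in HPNE and between 29209142 and 42206773 in HPDE. In 4 HPNE libraries the profile stood apart from the other 2 of its group. These were untreated replicate 3, residual medium replicate 3, PANC-1 EV replicate 1 and PPCL-68 EV replicate 1, which lay 2.05 to 3.31 times as far from the closer pair of their group as that pair lay from each other. In HPDE the same ratio was 1.08 to 1.24. Counts of HPNE members called, and the values of some genes, are therefore given with and without these 4 libraries. As these were picked by distance in the same data, dropping them lowers the remaining spread, so calls gained that way are not added support. Deviations from the group mean in untreated replicate 1 went with those in PANC-1 EV and PPCL-68 EV replicate 1 (correlations 0.480 and 0.492). In replicate 3, untreated and residual medium went opposite ways (-0.513). Without the 4 libraries, differences from untreated cells therefore cannot be told apart from this pattern. All 6 epithelial markers were lower in every HPNE library than in any HPDE library. EPCAM was at 0 to 0.162 FPKM in HPNE against 148 to 192 FPKM in HPDE, CDH1 at 0.00537 to 0.112 against 44.9 to 56.6, KRT19 at 0 to 0.905 against 317 to 1139.7, and KRT7 at 0.147 to 1.57 against 587 to 1161. KRT8 and KRT18 were low but present in HPNE, at 0.665 to 6.28 and 3.21 to 5.13 FPKM against 158 to 674 and 119 to 299. Of 6 mesenchymal markers, VIM, CDH2, PDGFRB, THY1 and ZEB1 were higher in every HPNE library than in any HPDE library, VIM at 149 to 539 FPKM against 19.6 to 28.6, and S100A4 overlapped at 0.177 to 2.01 against 0.750 to 2.14. EPCAM and CDH1, which define epithelial cells, were thus at or near 0 in HPNE, against the epithelial part of its label. Leukocyte and endothelial markers reached at most 0.159 FPKM in any library. In such bulk RNA, fewer cells of a type and less RNA per cell cannot be told apart.

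Expression of the matrix genes separated the lines. Summed over the 39 genes, they took 12.2 to 18.5% of all reads in HPNE against 1.09 to 1.99% in HPDE. In untreated cells 33 of the 39 had the higher mean in HPNE and 6 in HPDE, 29 of them by more than 10-fold and 18 by more than 100-fold. The ranges of the lines over all 24 libraries did not overlap for 36 genes and did for TNC, LAMA5 and LAMB1. The shares of all genes with such folds or without overlap were not computed, so these counts describe the members only. Differences were tested with limma on log2(FPKM + 1) in one fit of all 24 libraries, two-sided and adjusted by Benjamini-Hochberg over all 12377 genes with a mean of at least 1 FPKM. ELN did not reach that mean. All 38 tested members passed an adjusted p of 0.05, 6 higher and 32 lower in untreated HPDE, where 83.8% of all genes tested passed, 56% higher and 27.7% lower. The count says little by itself against that background. Many members, among them COL1A2, COL6A1 and COL17A1, also reached the mean of 1 FPKM only through the line where they are high. For such genes a difference between the lines was largely set by the filter, so their calls and p-values are not added support. The median log2 difference, HPDE against HPNE, was -4.40 over the members and 0.38 over all genes, and rescaling by median-of-ratios size factors moved the latter to 0.07. The split between the lines held under the other treatments, where 5 members were higher and 31 lower with residual medium (82.3% of all genes passed, 58.4% higher and 23.9% lower), and 5 higher and 32 lower with PANC-1 vesicles (82.5%, 56.4% and 26.1%) and with PPCL-68 vesicles (82%, 57.9% and 24.1%).

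Of the 5 fibrillar chains, COL1A1, COL1A2 and COL3A1 ranked 5, 6 and 9 among the 39 members by their median level in HPNE. COL5A1 and COL5A2 ranked 16 and 17. In HPDE COL1A1 was at 2.27 to 5.03 FPKM, and the other 4 reached at most 1.43 in any library. COL1A1, the main chain of type I collagen, was at 4337, 4277 and 3731 FPKM in the 3 untreated HPNE libraries and at 2.49, 3.45 and 2.76 in HPDE, a ratio of the means of 1419. COL1A2, its partner chain, was at 2062, 1970.3 and 1603 FPKM and at 0, 0.269 and 0.170, the latter from 0 to 68 reads, with a log2 difference of -10.68, SE 0.27, adjusted p = 1.76e-18 by limma. COL3A1, of type III collagen, was at 1889, 1786 and 1122 FPKM in HPNE and 0, 0.184 and 0.198 in HPDE, a log2 difference of -10.44, SE 0.34, adjusted p = 1.23e-16. Type V chains followed, with a mean of 267 FPKM for COL5A1 and 233 for COL5A2 in untreated HPNE against 0.0217 and 0.352 in HPDE. COL1A1 had at least 465 reads in every HPDE library, and the other 4 chains had at most 288 in any.

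COL6A1 and COL6A2, of the beaded type VI filaments of the pericellular matrix, gave the largest log2 differences among the members on the log2(FPKM + 1) scale. By the ratio of the means COL1A2 was ahead of them, at 12830 against 12687 for COL6A2 and 11225 for COL6A1. COL6A1 was at 3273, 3304 and 3742 FPKM in untreated HPNE and 0.0313, 0.676 and 0.212 in HPDE, a log2 difference of -11.39, SE 0.29, adjusted p = 1.11e-18. COL6A2 showed 3641, 3646 and 4064 FPKM against 0.00958, 0.561 and 0.324, a log2 difference of -11.53, SE 0.31, adjusted p = 3.45e-18, and COL6A3 had means of 813 and 0.123 FPKM. Such differences depend on the pseudocount of 1 FPKM, because untreated HPDE libraries held between 1 and 121 reads of these genes. Short-chain and fibril-associated collagens differed far less. COL8A1 was 3.45 times and COL12A1 2.86 times as high in untreated HPNE as in HPDE.

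FN1 was the most abundant member in HPNE and had 107 times the mean level of untreated HPDE, at 5854, 5885 and 6211 against 52.9, 59.2 and 55.4 FPKM. FBN1, the main fibrillin of elastic microfibrils, was 254 times as high in HPNE, whereas its relative FBN2 went the other way, with 0.145, 0.140 and 0.146 FPKM in HPNE, 7.82, 7.33 and 7.69 in HPDE and a log2 difference of 2.91, SE 0.08, adjusted p = 3.99e-18. ELN, the elastin gene, was barely detected in HPNE at 1.46, 1.32 and 0.554 FPKM and had no read in the 3 untreated HPDE libraries. Against a floor of 3 reads in each library, HPNE was at least 42.3-fold higher. Among the matricellular and proteoglycan genes, SPARC (which binds collagen) and TGFBI (which binds collagen and integrins) were 14.7 and 25.7 times as high in HPNE and clearly present in HPDE. The small leucine-rich proteoglycans LUM and DCN had means of 208 and 478 FPKM in untreated HPNE and 0.0217 and 0.0857 in HPDE. POSTN was at 224, 209 and 99.9 FPKM in HPNE and had 0 to 6 reads in untreated HPDE. FAP, a surface protease of activated fibroblasts, had a mean of 52.9 FPKM against 0.0658.

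TNC, like FBN2 and unlike the other 27 stromal genes, had the higher mean in untreated HPDE. Untreated HPNE had 0.558, 0.547 and 7.65 FPKM and untreated HPDE 14.4, 14.7 and 15.2, a log2 difference of 2.52, SE 0.62, adjusted p = 0.000955. The highest HPNE value came from replicate 3, a library that stood apart, and over all treatments the lines overlapped. The 6 crosslinking genes were all higher in HPNE by 2.48 (PLOD2) to 56.0 times (LOX). LOX and LOXL1 had means of 0.57 and 1.57 FPKM in untreated HPDE, whereas the lysyl hydroxylases and SERPINH1 had means of at least 34.5 FPKM there.

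Basement membrane genes divided by chain. COL4A1 was at 548, 548 and 574 FPKM in untreated HPNE and 17.1, 18.5 and 17.9 in HPDE, and COL4A2 was 15.8 times as high in HPNE. LAMC1 and LAMB1, shared by many laminins, were higher in HPNE by 7.62 and 2.33 times, and LAMA4, a chain typical of mesenchymal and vascular laminins, by 968 times. In contrast, COL17A1 was at 0.0619, 0.184 and 0.123 FPKM in untreated HPNE and 422, 435 and 421 in HPDE, a log2 difference of 8.57, SE 0.08, adjusted p = 1.9e-25. LAMA3 was at 0.0878, 0.215 and 0.0344 FPKM in HPNE and 176, 192 and 183 in HPDE (7.37, SE 0.07, adjusted p = 1.47e-25, a log2 difference as in the brackets that follow). LAMB3, its partner, had 12.1, 13.3 and 17.1 FPKM in HPNE and 614, 666 and 667 in HPDE (5.44, SE 0.15, adjusted p = 7.19e-18). None of these 3 genes overlapped between the lines in any treatment. LAMA5, a broad epithelial and vascular chain, did overlap: its levels were 27.9, 28.9 and 44.7 FPKM in untreated HPNE and 41.1, 44.1 and 42.5 in HPDE, with a log2 difference of 0.35, SE 0.15, adjusted p = 0.0385, and after rescaling by size factors 37 of 38 members passed, with 5 in place of 6 higher in HPDE. The anchoring fibril collagen COL7A1 was 3.28 times as high in untreated HPNE, against the direction of COL17A1.

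**Figure D1:**
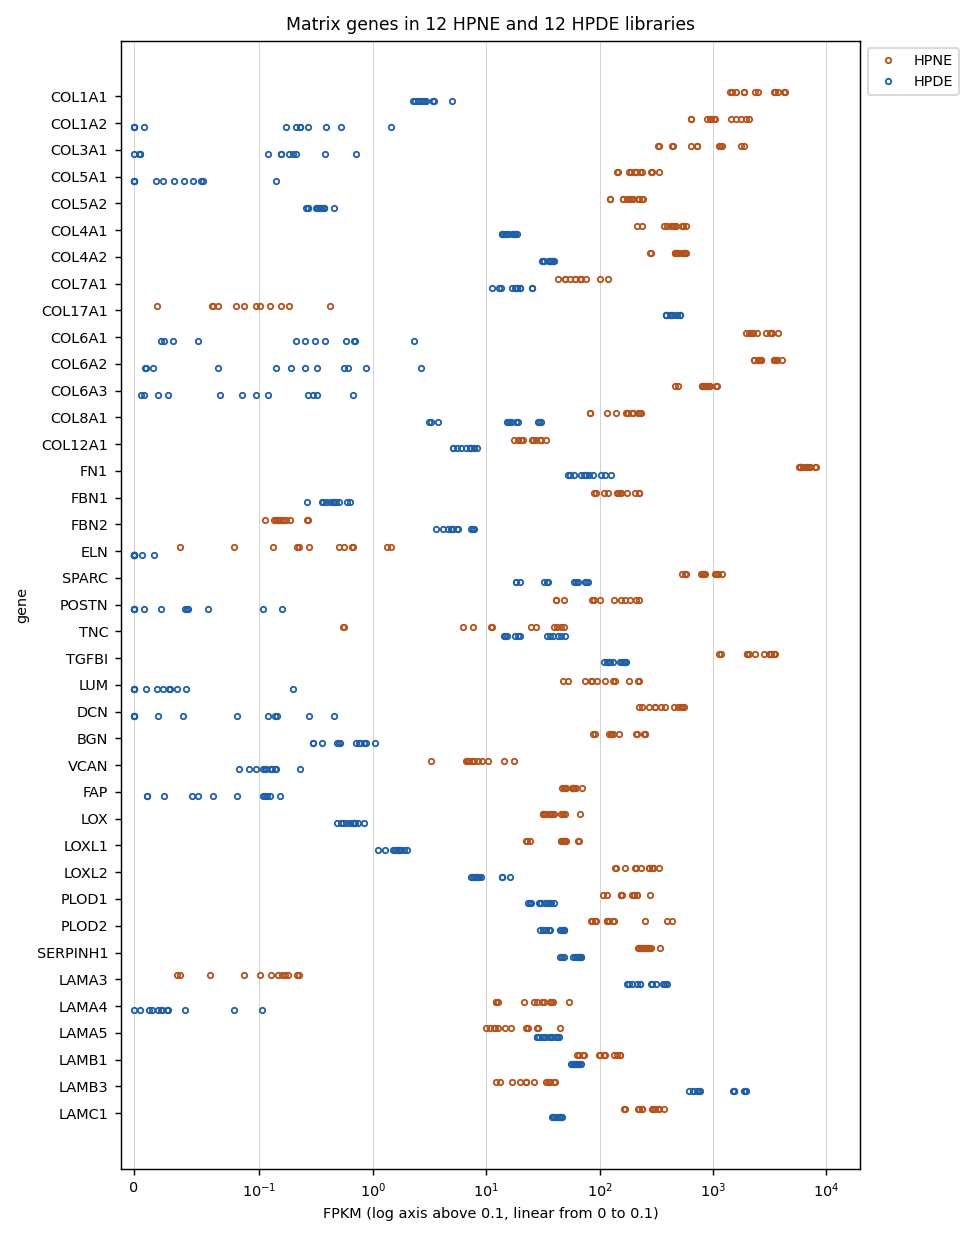
FPKM of the 39 matrix genes in the 12 HPNE libraries (orange) and the 12 HPDE libraries (blue), 1 point per library, on an axis that is linear up to 0.1 FPKM and logarithmic above. Most stromal genes sit at the HPNE end, FBN2, COL17A1, LAMA3 and LAMB3 at the HPDE end, and TNC, LAMA5 and LAMB1 overlap.

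Several members lie side by side in the genome, and both genes of each such pair were higher in untreated HPNE, as were 33 of all 39 members. In the hg19 positions of the deposited tables, COL4A1 (chromosome 13, 110801318 to 110959496, minus strand) and COL4A2 (110958159 to 111165374, plus strand) are transcribed head to head and their annotated spans overlap by 1338 bases. The libraries did not keep strand, so reads in the overlap cannot be told apart. COL3A1 and COL5A2 lie 19149 bases apart on chromosome 2, LUM and DCN 33416 bases apart on chromosome 12, and COL6A1 and COL6A2 93046 bases apart on chromosome 21. To show the start regions of the type IV pair and of 3 genes that rose with vesicles in HPDE, the 300 bases from 250 before to 50 after the start of each are printed from RefSeq on GRCh38.p14, a later build than that of the counts, as 5′ to 3′ on the gene's strand. Promoters of 28 of the 39 members were matched by symbol. Capitals mark matches, on either strand, to TGANTCA (the AP-1 motif), CCAAT (a common promoter box), TATAAA (a core promoter element), GGGCGG (a GC box) or CAGACA (a SMAD motif). COL4A1 is at chr13:110307108-110307407 (minus), COL4A2 at chr13:110307034-110307333 (plus), LAMA3 at chr18:23872770-23873069 (plus), LAMB3 at chr1:209652376-209652675 (minus) and TNC at chr9:115118108-115118407 (minus). The COL4A1 and COL4A2 windows share 226 bases on opposite strands, and the LAMA3 window begins 183 kb into the gene, at the start of one of its transcripts.
COL4A1: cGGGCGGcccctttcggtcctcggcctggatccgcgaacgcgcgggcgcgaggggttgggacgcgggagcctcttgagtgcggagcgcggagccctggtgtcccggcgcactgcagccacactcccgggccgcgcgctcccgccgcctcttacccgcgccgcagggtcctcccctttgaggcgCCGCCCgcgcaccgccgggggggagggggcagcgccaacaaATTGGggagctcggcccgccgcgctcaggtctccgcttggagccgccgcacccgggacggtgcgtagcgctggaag
COL4A2: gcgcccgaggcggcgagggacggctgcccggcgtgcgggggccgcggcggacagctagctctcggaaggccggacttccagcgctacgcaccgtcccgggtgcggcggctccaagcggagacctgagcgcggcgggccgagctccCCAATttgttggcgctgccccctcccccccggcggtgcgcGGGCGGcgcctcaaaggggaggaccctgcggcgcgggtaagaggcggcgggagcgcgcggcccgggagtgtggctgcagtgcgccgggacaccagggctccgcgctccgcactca
LAMA3: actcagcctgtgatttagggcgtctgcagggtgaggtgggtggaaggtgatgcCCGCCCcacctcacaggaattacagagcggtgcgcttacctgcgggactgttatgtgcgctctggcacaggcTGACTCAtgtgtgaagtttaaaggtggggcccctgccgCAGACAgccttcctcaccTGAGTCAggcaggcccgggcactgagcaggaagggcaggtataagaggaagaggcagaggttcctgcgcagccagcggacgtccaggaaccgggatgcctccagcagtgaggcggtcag
LAMB3: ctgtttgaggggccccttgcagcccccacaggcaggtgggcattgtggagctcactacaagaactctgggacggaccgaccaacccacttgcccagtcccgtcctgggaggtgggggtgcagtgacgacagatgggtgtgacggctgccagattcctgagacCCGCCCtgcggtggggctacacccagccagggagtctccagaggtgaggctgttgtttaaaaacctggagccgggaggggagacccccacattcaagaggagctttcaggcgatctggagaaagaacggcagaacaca
TNC: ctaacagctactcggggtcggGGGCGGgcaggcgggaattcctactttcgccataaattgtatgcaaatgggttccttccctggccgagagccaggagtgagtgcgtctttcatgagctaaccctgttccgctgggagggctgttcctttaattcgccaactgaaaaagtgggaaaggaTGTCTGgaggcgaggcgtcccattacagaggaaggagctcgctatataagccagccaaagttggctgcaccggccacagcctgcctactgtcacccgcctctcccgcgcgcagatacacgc

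The LAMA3 window held 2 matches to the AP-1 motif, 1 to the GC box and 1 to the SMAD motif. The TNC window held 1 GC box and 1 SMAD match, and that of LAMB3 held 1 GC box. A CCAAT match fell in the stretch shared by COL4A1 and COL4A2. Over the 28 matched members, 2 promoters (POSTN and LAMA3) held TGANTCA, as did 7.76% of 27305 promoters of the same length. GGGCGG was in 20 of 28 against 44.6% of all, CCAAT in 7 against 35.7%, TATAAA in 4 against 12% and CAGACA in 5 against 16.8%. Some motifs can share bases, and a match is a description of letters only.

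The low HPDE levels of 9 stromal genes were all highest in the same library. These genes, which were picked after their values were seen, are COL1A2, COL3A1, COL5A1, COL6A1, COL6A2, COL6A3, DCN, LUM and POSTN, and none exceeded 0.0960% of its mean in untreated HPNE in any HPDE library. Residual medium replicate 3 was highest for each of the 9, at a median of 0.0763% with a range of 0.0444 to 0.0960%, and 3 libraries had a median of 0. Some other stromal genes that were abundant in HPNE were above the floor of 3 reads in every HPDE library. COL5A2 was at 0.259 to 0.451 FPKM with at least 54 reads, FBN1 at 0.262 to 0.629 with at least 120, and BGN at 0.298 to 1.04 with at least 24. In FPKM they were not above the 9 genes throughout, as COL6A2 reached 2.65. FAP, at 46.9 to 69.9 FPKM in HPNE, went down to 1 read in HPDE. In the other direction CDH1, COL17A1, EPCAM, KRT19, KRT7 and LAMA3, picked in the same way, reached at most 0.216% of their HPDE level in any HPNE library. Read counts of the 9 genes were small, with at most 329 reads for COL6A1 in any HPDE library. Where these reads came from was not tested, and for the 17 members below a mean of 1 FPKM in HPDE no treatment effect was tested there.

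**Figure D2:**
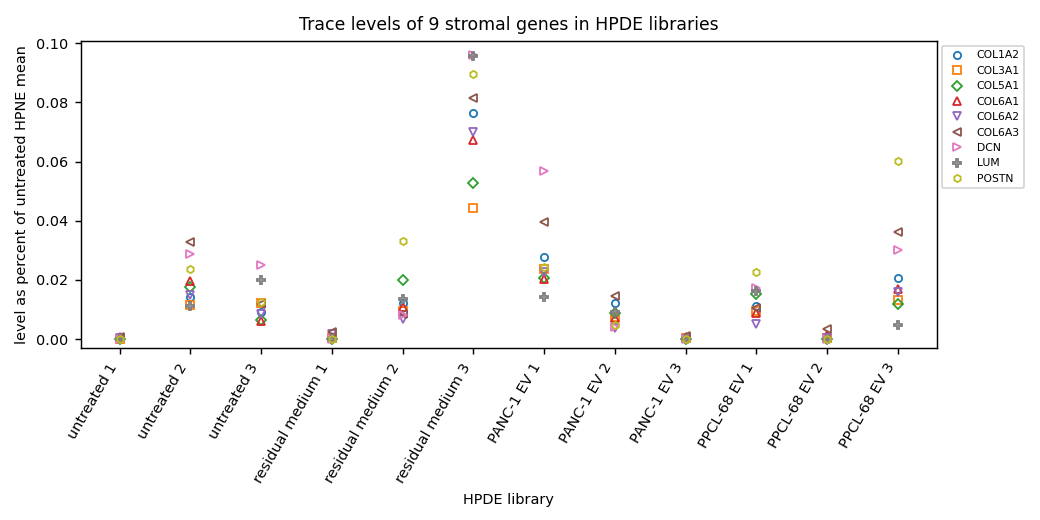
Level of 9 stromal genes in each of the 12 HPDE libraries as a percent of the mean of the 3 untreated HPNE libraries. Residual medium replicate 3 is highest at 0.0444 to 0.0960%, and in 3 libraries the median is 0.

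Residual medium alone changed the matrix genes of HPNE. Against untreated cells, 20 of the 35 members tested in this line passed, 5 higher and 15 lower (43.9% of all 11503 genes tested passed, 18.7% higher and 25.2% lower), and without the 4 libraries that stood apart 30 passed, 9 higher and 21 lower (71.7% of all genes). The median log2 difference of the members was -0.48, against -0.05 over all genes. Of the 5 fibrillar chains 3 fell, both type IV chains fell, 4 of 5 laminin chains fell and 1 rose, and of 6 crosslinking genes 2 rose. With size factors the split was 6 higher and 12 lower.

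POSTN fell from 224, 209 and 99.9 FPKM in the untreated libraries to 41.5, 48.4 and 41 with residual medium, a log2 difference of -1.92, SE 0.31, adjusted p = 0.00109 by limma. The groups did not overlap. LAMA5 fell from 27.9, 28.9 and 44.7 to 11.6, 10.05 and 10.8 FPKM (-1.53, SE 0.18, adjusted p = 0.000168), and LUM, which controls collagen fibril diameter, from 222, 219 and 182 to 83.7, 75 and 113 (-1.21, SE 0.23, adjusted p = 0.00237). COL4A1 was at 215, 236 and 423 FPKM with residual medium, against 548 to 574 in untreated cells (-1.0, SE 0.21, adjusted p = 0.00403). Type I and III collagen fell less evenly. COL1A1 was at 1896, 1876 and 3498 FPKM with residual medium, a log2 difference of -0.82 that became -1.19 without the libraries that stood apart. COL3A1 was at 443, 437 and 1145 FPKM, and its difference of -1.36, between groups that overlapped, became -2.06. In both genes residual medium replicate 3 was far above the other 2. DCN and BGN were not called with all libraries. They passed only without those that stood apart, a choice that lowers the spread, with log2 differences of -1.19 and -1.46.

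In the other direction, PLOD2, the lysyl hydroxylase that favours stable collagen crosslinks, rose from 84.3, 85.9 and 92.9 FPKM to 432, 391 and 251, a log2 difference of 1.98, SE 0.18, adjusted p = 3.9e-05. LOXL2, which oxidises lysines of collagen IV among other substrates, rose from 139, 138 and 168 to 271, 275 and 337 FPKM (0.98, SE 0.11, adjusted p = 0.000155), and LAMB3 from 12.1, 13.3 and 17.1 to 40.1, 36.7 and 22.4 (1.14, SE 0.20, adjusted p = 0.00159). The 3 genes did not overlap between the groups. TNC was at 0.558, 0.547 and 7.65 FPKM in untreated cells and 45.8, 40.04 and 10.9 with residual medium (3.37, SE 0.82, adjusted p = 0.00844), and without the libraries that stood apart the difference was 4.82. FN1, by contrast, kept a log2 difference of 0.03 (adjusted p = 0.901), and LOXL1 one of 0.04 (adjusted p = 0.815).

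**Figure D3:**
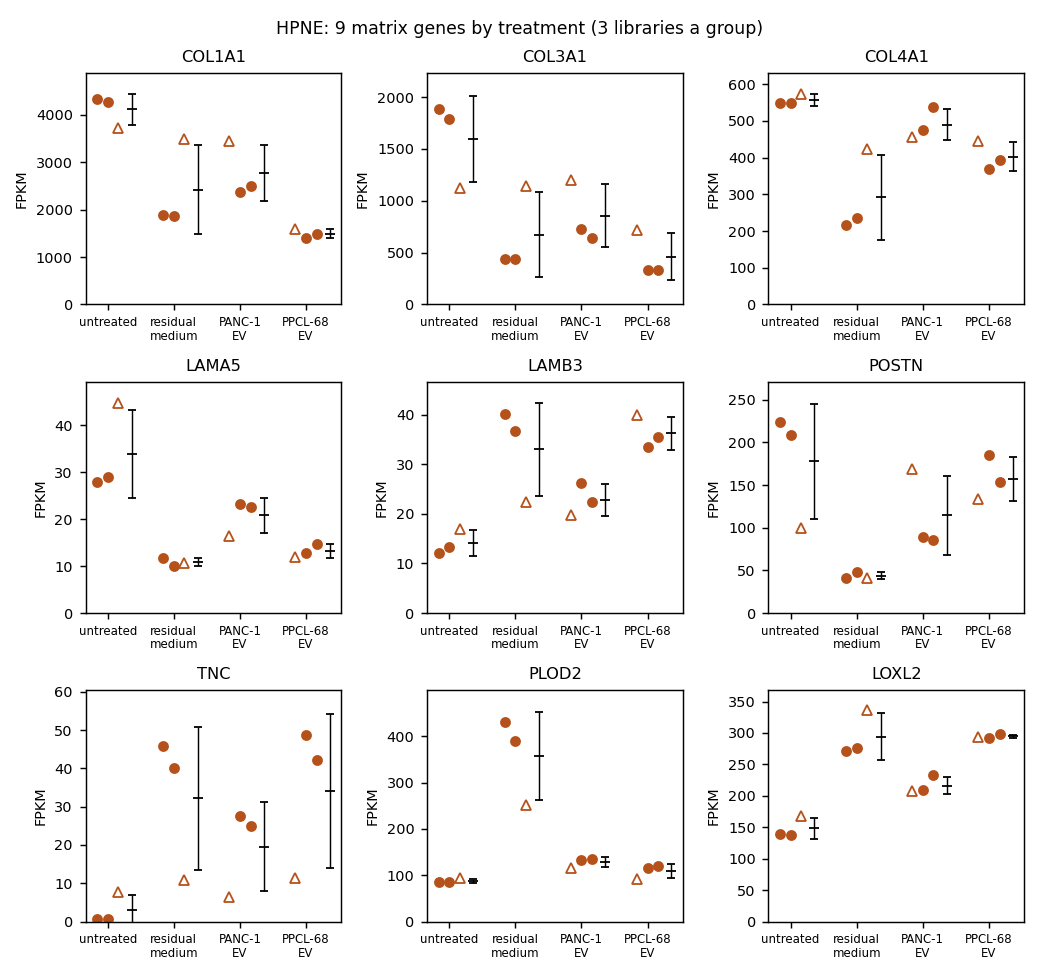
FPKM of 9 matrix genes in the HPNE libraries by treatment, 1 point per library, with the mean and SD beside them and open triangles for the 4 libraries that stood apart (the lower SD bar of TNC in untreated cells ends at 0). PLOD2 is at 251 to 432 FPKM with residual medium and at most 135 in every other group.

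PANC-1 vesicles were compared with residual medium, the control prepared alongside them. In HPNE 9 of 35 members passed, 7 higher and 2 lower, where 24.2% of all genes did, 13.9% higher and 10.3% lower. Without the libraries that stood apart, 30 passed, 24 higher and 6 lower, against 58.9% of all genes. Of the 8 basement membrane genes tested 5 rose and none fell. Among the 27 stromal genes 2 rose and 2 fell. The members' median log2 difference was 0.23, against 0.02 over all genes.

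POSTN was at 168, 89.4 and 85.7 FPKM with PANC-1 vesicles against 41.0 to 48.4 with residual medium, a log2 difference of 1.30, SE 0.31, adjusted p = 0.0127 by limma. LAMA5 was at 16.4, 23.3 and 22.7 FPKM (0.87, SE 0.18, adjusted p = 0.00661), LAMC1 at 308, 289 and 298 against 168, 164 and 237 (0.67, SE 0.13, adjusted p = 0.00554), and COL4A1 at 455, 476 and 537 (0.81, SE 0.21, adjusted p = 0.0181). All 4 lay above every residual medium library. The COL4A1 call was lost when any of 3 libraries was left out (PANC-1 EV replicate 3 or residual medium replicates 1 or 2), at adjusted p values up to 0.0815, and its difference was 1.16 without the 4 libraries that stood apart. COL4A2, COL6A1 and LAMB1 rose by log2 differences of 0.62, 0.54 and 0.64, with overlapping groups for COL4A2. PLOD2 fell, with 116, 133 and 135 FPKM against 251 to 432 (-1.44, SE 0.18, adjusted p = 0.000614), and LOXL2 was at 207, 209.9 and 232 FPKM (-0.44, SE 0.11, adjusted p = 0.018), a call that leaving out PANC-1 EV replicate 2 ended at an adjusted p of 0.0613. None of the 5 fibrillar chains passed with all libraries. Without the 4 libraries all 5 did, with log2 differences from 0.13 for COL1A2 to 0.63 for COL3A1. Dropping these libraries lowers the spread, so such calls do not establish a rise of the fibrillar chains.

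PPCL-68 vesicles gave 10 of 35 calls against residual medium, 4 higher and 6 lower, where 39.9% of all genes passed, 20.3% higher and 19.7% lower. Without the libraries that stood apart there were 26, 17 higher and 9 lower, against 65.5% of all genes. POSTN was at 133, 185 and 153 FPKM, above all residual medium libraries (1.82, SE 0.31, adjusted p = 0.00128). TGFBI was at 3279, 2833 and 3113 FPKM against 1143, 1176 and 2371 (1.06, SE 0.32, adjusted p = 0.0223) and COL6A3 at 931, 1098 and 1071 against 465, 488 and 905 (0.80, SE 0.21, adjusted p = 0.0124). COL4A2, the partner of COL4A1, was at 536, 479 and 484 FPKM against 276, 284 and 460.3 (0.59, SE 0.18, adjusted p = 0.02). Each of the last 3 calls was lost on leaving out residual medium replicate 1 or 2, that of TGFBI also without PPCL-68 EV replicate 1 or 3 and that of COL4A2 also without PPCL-68 EV replicate 1, at adjusted p values up to 0.0922, and without the 4 libraries their log2 differences were 1.36, 1.19 and 0.78.

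Of the 6 crosslinking genes 3 fell with PPCL-68 vesicles and none rose (19.7% of all genes fell and 20.3% rose). PLOD2 was at 91.3, 116 and 120.3 FPKM (-1.68, SE 0.18, adjusted p = 9.63e-05). LOXL1, an oxidase tied to elastic fibres, was at 24.5, 22.5 and 22.9 FPKM against 50.6, 50.04 and 66.2 (-1.21, SE 0.13, adjusted p = 9.88e-05). PLOD1, which hydroxylates lysines within the collagen helix, was at 154, 108 and 117 against 213, 202 and 278 (-0.87, SE 0.18, adjusted p = 0.0038). LAMA4 fell too, to 12.1, 12.7 and 12.2 FPKM from 31.4, 28 and 21.5 (-1.05, SE 0.17, adjusted p = 0.000876). These groups did not overlap. SPARC and COL1A2 also passed, with log2 differences of -0.64 and -0.71. LOXL2, in contrast to its fall with PANC-1 vesicles, was at 294, 292 and 298 FPKM and differed from residual medium by 0.01 (adjusted p = 0.957).

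Vesicle-treated HPNE cells were also set against untreated cells. The contrasts share their vesicle libraries with those above. With PANC-1 vesicles 6 of 35 members passed, 3 higher and 3 lower (21.1% of all genes, 9.61% higher and 11.5% lower; 26 members, 11 higher and 15 lower, without the libraries that stood apart, 62.7% of all genes), and with size factors 6 passed, 4 higher and 2 lower. LOXL2 was higher (0.55, SE 0.11, adjusted p = 0.00742), as was LAMB3 (0.66, SE 0.20, adjusted p = 0.0373), and lower were LUM (-0.79, SE 0.23, adjusted p = 0.0309), LAMA5 (-0.66, SE 0.18, adjusted p = 0.0233) and SPARC (-0.43, SE 0.13, adjusted p = 0.0353). The LAMB3 call ended under the replicate block at an adjusted p of 0.0582, and the SPARC call with size factors (-0.36, adjusted p = 0.0849). The calls of LAMB3 and LUM were lost without untreated replicate 1 or 2 or PANC-1 EV replicate 2 or 3, that of LAMA5 without PANC-1 EV replicate 1 or 3 and that of SPARC without any of the 6 libraries, at adjusted p values up to 0.136, and the LAMA5 difference was -0.30 without the 4 libraries. TNC passed with overlapping groups (2.67).

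With PPCL-68 vesicles 17 of 35 passed against untreated cells, 4 higher and 13 lower (42.5% of all genes, 18.7% higher and 23.8% lower; 33 members, 12 higher and 21 lower, without the libraries that stood apart, 69.5% of all genes), and with size factors 18, of which 6 were higher and 12 lower. COL1A1 was at 1589.5, 1411 and 1488 FPKM against 3731 to 4337 in untreated cells (-1.46, SE 0.25, adjusted p = 0.00089), and COL3A1 at 722, 328 and 336 (-1.85, SE 0.43, adjusted p = 0.00508). LUM was at 86, 47.3 and 53.1 FPKM (-1.77, SE 0.23, adjusted p = 0.000168), and LAMA4 was below its untreated range of 37.6 to 54.3 (-1.72, SE 0.17, adjusted p = 3.09e-05). TNC, at 11.3, 48.8 and 42.3 FPKM, was above all untreated libraries (3.44, SE 0.82, adjusted p = 0.00635), as were LAMB3 at 39.95, 33.4 and 35.5 (1.31, SE 0.20, adjusted p = 0.00045), COL8A1 at 194, 218 and 227 (1.10, SE 0.23, adjusted p = 0.00293) and LOXL2 (0.99, SE 0.11, adjusted p = 7.79e-05).

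Between the vesicle sources 6 of 35 members differed in HPNE, 5 higher and 1 lower with PANC-1 vesicles, against 5.47% of all genes, 3.22% higher and 2.25% lower. Replicate numbers of these 2 groups deviated together, and with the number as a block 5 passed, 4 higher and 1 lower. Without the libraries that stood apart 27 passed, 17 higher and 10 lower, against 36.4% of all genes. LAMA4 was at 26.4, 36.6 and 32.1 FPKM with PANC-1 and 12.1, 12.7 and 12.2 with PPCL-68 vesicles (1.28, SE 0.17, adjusted p = 0.00377), and LOXL1 at 48.6, 45.8 and 45.4 against 24.5, 22.5 and 22.9 (0.97, SE 0.13, adjusted p = 0.004). LUM (0.98, SE 0.23, adjusted p = 0.0323) and SPARC, at 820.4, 851 and 838 against 538, 578 and 569 (0.57, SE 0.13, adjusted p = 0.0271), were higher with PANC-1 vesicles, and LOXL2 was lower (-0.45, SE 0.11, adjusted p = 0.0447). The LOXL2 call was lost whichever of the 6 libraries was left out, the SPARC call without any except PPCL-68 EV replicate 1, and the LUM call without PANC-1 EV replicate 1 or 2 or PPCL-68 EV replicate 2 or 3, at adjusted p values up to 0.140. Leaving out 1 library brought the count of 6 to between 2 and 4.

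**Figure D4:**
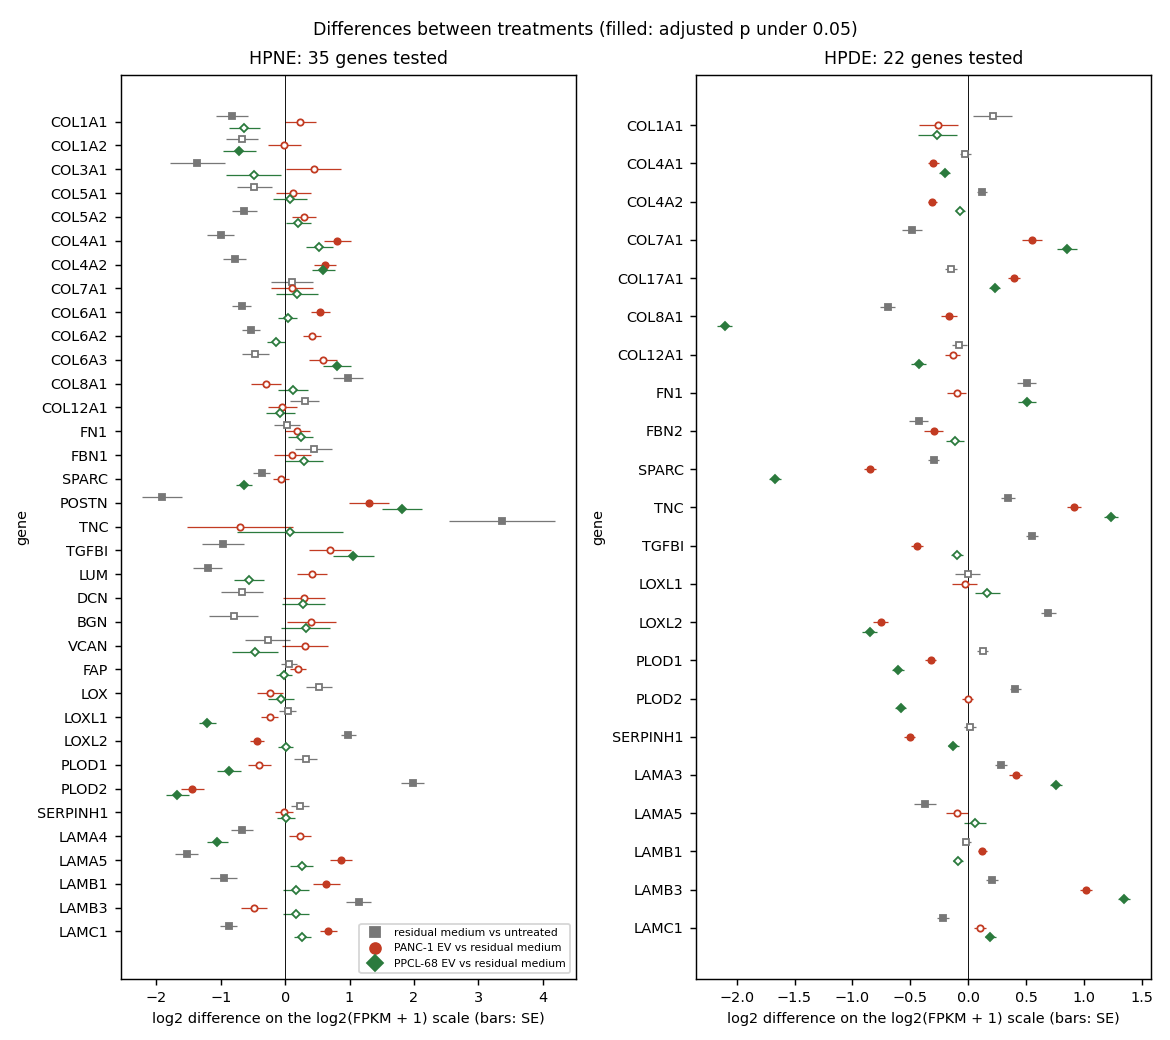
Log2 differences in log2(FPKM + 1) with their standard errors for the members tested in HPNE (35) and HPDE (22): residual medium against untreated (grey squares), PANC-1 EV against residual medium (red circles) and PPCL-68 EV against residual medium (green diamonds), filled where the adjusted p is under 0.05. Bars are wider in HPNE, and LAMB3 and SPARC in HPDE lie on opposite sides of 0 with both vesicle sources.

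In HPDE 22 members were expressed at a mean of at least 1 FPKM. PANC-1 vesicles changed 15 of them against residual medium, 6 higher and 9 lower, where 63.3% of all 12223 genes passed (28.2% higher, 35.1% lower), and PPCL-68 vesicles changed 15, 7 higher and 8 lower, where 67.7% passed (31.3% higher, 36.4% lower). Both vesicle comparisons share the residual medium libraries. Basement membrane genes were higher in 5 and lower in 2 of 9 cases with PANC-1 vesicles, and higher in 5 and lower in 1 of 9 with PPCL-68 vesicles. Stromal genes were higher in 1 and lower in 7 of 13, and higher in 2 and lower in 7 of 13. With size factors the PANC-1 calls were 7 higher and 8 lower and the PPCL-68 calls 7 and 7.

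LAMB3 was the most abundant member in HPDE and rose with each source. Its level was 776, 723 and 749.5 FPKM with residual medium, 1493, 1529 and 1523 with PANC-1 vesicles and 1863, 1958 and 1902 with PPCL-68 vesicles. The groups did not overlap, and the log2 differences from residual medium were 1.02, SE 0.05, adjusted p = 8.84e-10 and 1.35, SE 0.05, adjusted p = 3.16e-11 by limma. LAMA3, the chain it pairs with, went from 214, 229.7 and 226 FPKM to 314, 286 and 290.1 (0.41, SE 0.05, adjusted p = 1.12e-05) and 362, 376 and 397 (0.76, SE 0.05, adjusted p = 1.35e-08). COL17A1 rose from 383, 385 and 385 FPKM to 516, 484 and 515 with PANC-1 vesicles and 424, 444 and 483 with PPCL-68 vesicles, log2 differences of 0.39 and 0.23. Untreated HPDE had a COL17A1 mean of 426 FPKM (SD 7.43), above residual medium, and its libraries overlapped with those given PPCL-68 vesicles. COL7A1, whose fibrils link the epithelial basement membrane to the tissue beneath, rose from 13.6, 11.3 and 13 to 19.9, 18 and 18.8 (0.55, SE 0.08, adjusted p = 5.98e-05) and 20.1, 25.5 and 25.5 (0.85, SE 0.08, adjusted p = 5.79e-07). Type IV collagen moved the other way: COL4A1 fell from 16.7, 18.1 and 17.6 FPKM to 14.2, 13.9 and 13.9 (-0.30) and 14.7, 14.8 and 15.6 (-0.20), and COL4A2 fell with PANC-1 vesicles (-0.31). LAMA5 passed with neither source: it was at 37.2, 28.3 and 33.1 FPKM with residual medium, 32.5, 28 and 30.9 with PANC-1 vesicles and 29.1, 35.8 and 37.7 with PPCL-68 vesicles. LAMC1 had 38 to 46.3 FPKM over the 12 HPDE libraries and LAMB1 56.3 to 68.6.

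TNC, a matricellular protein of tumour stroma and wound edges, was the stromal gene that rose with both. It was at 17.9, 19.1 and 20.1 FPKM with residual medium, 38.9, 34.3 and 36.8 with PANC-1 vesicles (0.91, SE 0.06, adjusted p = 1.05e-08) and 43.3, 45.6 and 49.3 with PPCL-68 vesicles (1.23, SE 0.06, adjusted p = 2.73e-10). FN1 rose with PPCL-68 vesicles, to 103, 112 and 126 FPKM from 75.4, 76.1 and 87.4 (a log2 difference of 0.51), and stood at 81.2, 68.5 and 73 with PANC-1 vesicles (-0.10, adjusted p = 0.28). SPARC fell from 65.2, 61.5 and 59.9 FPKM to 34.4, 35.4 and 32.4 (-0.85, SE 0.05, adjusted p = 3.59e-09) and 18.4, 18.3 and 19.9 (-1.67, SE 0.05, adjusted p = 4.03e-12). COL8A1, a short-chain collagen, was at 16.1, 19.2 and 18.2 FPKM with residual medium and 15.6, 15.2 and 16.4 with PANC-1 vesicles (-0.17, with overlapping groups), and fell to 3.25, 3.15 and 3.74 with PPCL-68 vesicles (-2.10, SE 0.07, adjusted p = 5.2e-12). TGFBI was at 124, 131 and 119 FPKM with PANC-1 vesicles against 169, 168 and 171 (-0.44, SE 0.05, adjusted p = 2.91e-06).

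Of the 5 crosslinking genes tested in HPDE, SERPINH1 among them, 3 fell with PANC-1 and 4 with PPCL-68 vesicles, and none rose. Of all genes, 35.1% and 36.4% fell and 28.2% and 31.3% rose. LOXL2 fell from 16.2, 13.7 and 13.8 FPKM to 8.26, 8.49 and 7.83 (-0.76, SE 0.07, adjusted p = 2.07e-07) and 7.31, 7.44 and 8.05 (-0.85, SE 0.07, adjusted p = 3.73e-08). Untreated cells were at 8.94, 8.69 and 8.20 FPKM. PLOD1 fell from 39.5, 35.8 and 37.5 to 29.2, 30.6 and 29.6 FPKM (-0.33) and 23.5, 24.5 and 25 (-0.61, SE 0.05, adjusted p = 7.09e-08). SERPINH1 fell more with PANC-1 than with PPCL-68 vesicles, from 68.3, 64.7 and 67.3 FPKM to 44.4, 47.1 and 48.8 (-0.51, SE 0.05, adjusted p = 7.25e-07), with 57.9, 64.3 and 61 for PPCL-68. PLOD2 fell in the PPCL-68 comparison, to 31.8, 29.7 and 31.8 FPKM from 45.4, 48.4 and 47.7 (-0.58), against 47.8, 48.6 and 44.7 with PANC-1 vesicles. LOXL1, at 1.12 to 2.00 FPKM over the line, passed with neither.

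**Figure D5:**
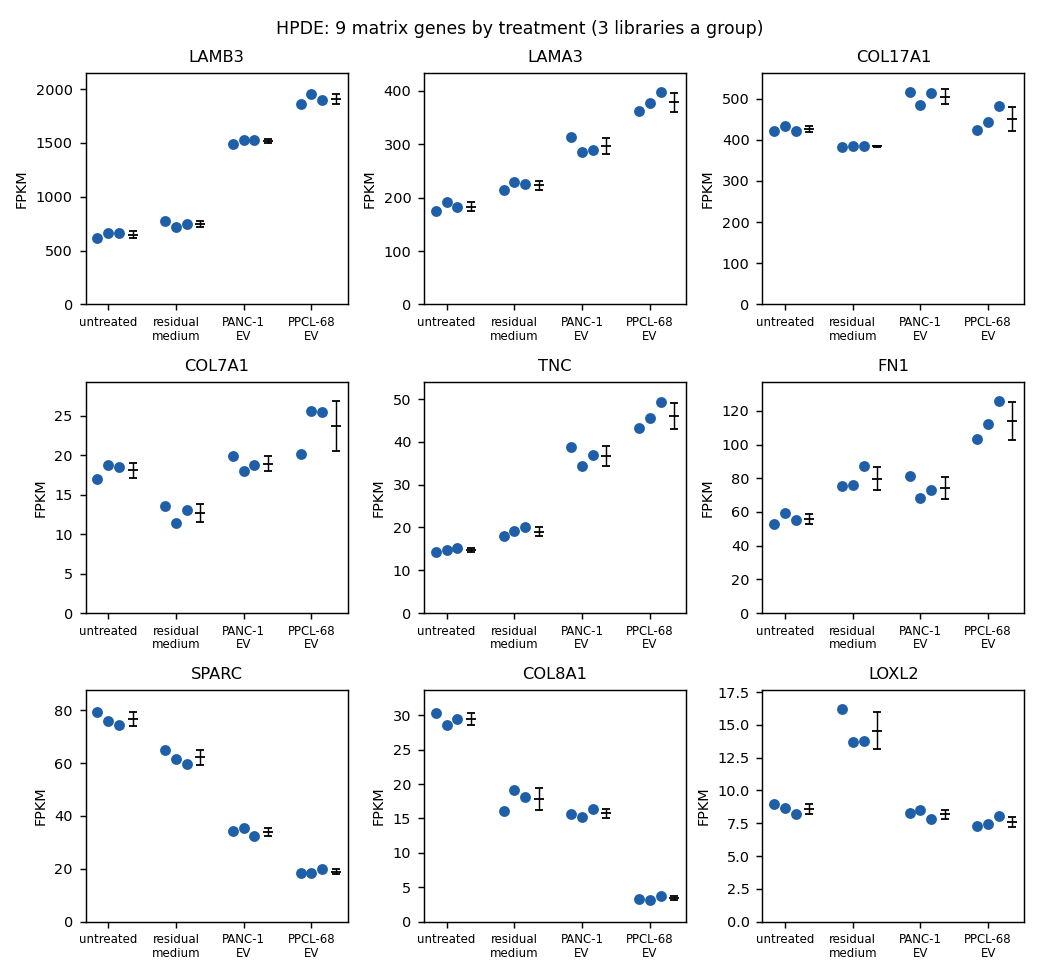
FPKM of 9 matrix genes in the HPDE libraries by treatment, 1 point per library, with the mean and SD beside them. LAMB3 is at 614 to 667 FPKM in untreated cells and at 1863 to 1958 with PPCL-68 vesicles, and SPARC falls from 74.6 to 79.6 FPKM to 18.3 to 19.9.

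Residual medium alone changed 14 of the 22 members in HPDE against untreated cells, 8 higher and 6 lower, where 20% of all genes passed, 9.93% higher and 10.1% lower. No library of this line stood apart. LOXL2 rose from 8.94, 8.69 and 8.20 FPKM to 16.2, 13.7 and 13.8 (0.69, SE 0.07, adjusted p = 4.75e-06), TGFBI from 109.5, 121 and 116 to 169, 168 and 171 (0.55, SE 0.05, adjusted p = 3.13e-06), FN1 from 52.9, 59.2 and 55.4 to 75.4, 76.1 and 87.4 (0.50, SE 0.08, adjusted p = 0.0006) and PLOD2 from 36.5, 35.6 and 34 to 45.4, 48.4 and 47.7 (0.40, SE 0.05, adjusted p = 4.08e-05). Falling were COL8A1, from 30.4, 28.5 and 29.4 FPKM to 16.1, 19.2 and 18.2 (-0.70, SE 0.07, adjusted p = 5.12e-06), COL7A1 from 17, 18.8 and 18.5 to 13.6, 11.3 and 13 (-0.49, SE 0.08, adjusted p = 0.00137) and FBN2 from 7.82, 7.33 and 7.69 to 5.58, 5.01 and 5.63 (-0.43, SE 0.08, adjusted p = 0.00237). None of these overlapped. LAMA5 fell as well (-0.37, SE 0.10, adjusted p = 0.0157), a call lost without untreated replicate 2 or residual medium replicate 2, at adjusted p values up to 0.0595. COL7A1 overlapped with untreated cells under PANC-1 vesicles and was above them in each library under PPCL-68 vesicles.

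Against untreated HPDE cells, 16 of 22 members passed with PANC-1 vesicles, 7 higher and 9 lower (60.6% of all genes, 26.3% higher and 34.4% lower), and 16 with PPCL-68 vesicles, 6 higher and 10 lower (66.3% of all genes, 30.1% higher and 36.1% lower). The leading rises were TNC at 1.25 and 1.57, LAMB3 at 1.22 and 1.55, LAMA3 at 0.69 and 1.04, and FN1 at 0.40 and 1.01 on the log2 scale for PANC-1 and PPCL-68 vesicles in that order. SPARC differed by -1.15 and -1.97 and COL8A1 by -0.86 and -2.80. Untreated libraries did not overlap with either vesicle group for any of these 6 genes.

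The vesicle sources differed from each other in 15 of 22 members in HPDE, 7 higher and 8 lower with PANC-1 vesicles, against 50.1% of all genes, 25.2% higher and 24.9% lower. COL8A1 was at 15.6, 15.2 and 16.4 FPKM with PANC-1 and 3.25, 3.15 and 3.74 with PPCL-68 vesicles (1.94, SE 0.07, adjusted p = 2.38e-10). SPARC (0.82, SE 0.05, adjusted p = 1.53e-08), PLOD2 (0.58, SE 0.05, adjusted p = 2.77e-07) and COL12A1 (0.29, SE 0.07, adjusted p = 0.00207) were also higher with PANC-1 vesicles. Lower were FN1 (-0.61, SE 0.08, adjusted p = 2.28e-05), SERPINH1 (-0.38, SE 0.05, adjusted p = 2.54e-05), LAMA3 (-0.35, SE 0.05, adjusted p = 8.36e-05) and TGFBI (-0.34, SE 0.05, adjusted p = 6.04e-05). LAMB3 and TNC, which rose with both sources, were lower with PANC-1 than with PPCL-68 vesicles by log2 differences of -0.33 and -0.32. All vesicles were given at the same number per well, and the part of other differences between the preparations was not tested.

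Whether a treatment acted differently in the lines was tested as an interaction in the fit of all 24 libraries, signed as HPDE minus HPNE. For PANC-1 vesicles against residual medium 12 of 38 members passed, 4 higher and 8 lower (21.2% of all genes, 8.65% higher and 12.5% lower), for PPCL-68 vesicles 14, 6 higher and 8 lower (25.7%, 12.1% higher and 13.6% lower), and for residual medium against untreated cells 21, 16 higher and 5 lower (38.1%, 21% higher and 17.1% lower). Without the 4 HPNE libraries that stood apart the counts were 28 (47% of all genes), 25 (45.9%) and 28 (62.5%). Members near 0 in one line, such as POSTN in HPDE, can hardly change there on the log2(FPKM + 1) scale. For them the contrast mostly repeats the response of the other line, so these counts do not show that the lines acted differently on such genes. By limma voom on the recovered reads fewer members passed for PPCL-68 vesicles and for residual medium. LAMB3 rose with PANC-1 vesicles in HPDE and had a log2 difference of -0.48 in HPNE (adjusted p = 0.0938), a difference between the lines of 1.5, SE 0.21, adjusted p = 6.49e-05 by limma. PLOD2 fell in HPNE, with no change called in HPDE, under the same vesicles (1.44, SE 0.19, adjusted p = 3.1e-05). COL4A1 rose in HPNE and fell in HPDE (-1.11, SE 0.22, adjusted p = 0.00112). With PPCL-68 vesicles SPARC fell in both lines, by more in HPDE (-1.03, SE 0.12, adjusted p = 2.7e-06), and COL8A1 fell in HPDE with no change called in HPNE (-2.23, SE 0.25, adjusted p = 2.27e-06). For residual medium, TGFBI fell in HPNE and rose in HPDE (1.52, SE 0.33, adjusted p = 0.00172), and PLOD2 rose in both, more in HPNE (-1.58, SE 0.19, adjusted p = 7.7e-06).

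Other genes of the same pathways were taken from 5 lists that hold no member: 16 of the transforming growth factor beta (TGF-beta) axis, 18 of collagen maturation, 15 further basement membrane genes, 15 matrix receptors and 14 other matrix genes. ITGB4, the integrin chain of the hemidesmosome, was higher in untreated HPDE than in HPNE by 7.78 on the log2 scale and rose with PANC-1 vesicles in HPDE by 0.55. ITGA2, a collagen receptor chain, rose with PPCL-68 vesicles there by 1.09. NID2, which links laminin to type IV collagen, fell in HPDE with each source, with log2 differences of -0.75 and -1.02.

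In HPNE, of the further basement membrane genes, 8 of 12 fell with residual medium and none rose (25.2% of all genes fell and 18.7% rose). With PANC-1 vesicles 3 of 12 were higher than with residual medium and none lower (13.9% and 10.3% of all genes), and with PPCL-68 vesicles 4 and none (20.3% and 19.7%). COL15A1, a basement membrane zone collagen, was at 276, 264 and 233 FPKM in untreated cells, 32.9, 37.4 and 81.6 with residual medium (-2.44, SE 0.27, adjusted p = 0.00013), 175, 137 and 127 with PANC-1 vesicles (1.62, SE 0.27, adjusted p = 0.00255) and 107, 93.2 and 86.8 with PPCL-68 vesicles (1.02, SE 0.27, adjusted p = 0.0124). COL18A1, the source of endostatin, differed by -1.65 and 0.93 in the comparisons of residual medium with untreated cells and of PANC-1 vesicles with residual medium. Of 17 collagen maturation genes, 6 rose and 4 fell with residual medium, none was higher and 5 were lower with PANC-1 vesicles than with residual medium, and 1 was higher and 8 lower with PPCL-68 vesicles, against the same shares of all genes. P4HA1, a prolyl hydroxylase, rose with residual medium by 0.87 and was lower with PANC-1 and PPCL-68 vesicles than with residual medium, with log2 differences of -0.81 and -1.10. On the TGF-beta axis, 5 of 15 were higher and 1 lower in HPNE with each vesicle source against residual medium. In HPDE 7 of 14 were higher and 2 lower with PANC-1 vesicles (28.2% and 35.1% of all genes), and 8 higher and 3 lower with PPCL-68 vesicles (31.3% and 36.4%). SMAD7, the inhibitory SMAD that TGF-beta induces, was higher with both sources in both lines, by 0.99 and 1.17 in HPNE and 0.89 and 1.04 in HPDE, and INHBA, an activin chain, rose in HPDE by 1.40 and 1.19.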

How the data were processed

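Total RNA from 24 libraries was sequenced with a non-directional kit, per the labels' protocols, so overlapping antisense genes can share reads. The submitters' processing notes name CASAVA, STAR, HTSeq and DESeq2, without versions, and the hg19 build; the handling of multiply mapped reads is not given in the sources used here. The authors deposited FPKM per gene with hg19 positions and gene lengths, per the file headers. Because FPKM is relative to the library total, abundant genes that change move the values of the rest; the top 10 genes took 14.5 to 18.3% of reads in HPNE and 4.33 to 5.21% in HPDE.

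Read totals were recovered from the steps of the FPKM values: 100% of values came out whole within 0.01 read. Precision figures from reads cover counting error only. Differences were tested with limma 3.58.1 under R 4.3.3 (lmFit, eBayes with trend) on log2(FPKM + 1), which understates changes of low genes. Each line's 12 libraries entered one fit, limited to mean levels of 1 FPKM or more (11503 genes in HPNE, 12223 in HPDE); line comparisons and interactions used all 24 libraries. Tests were two-sided with Benjamini-Hochberg adjustment over all genes tested and a threshold of 0.05. Tables were handled in Python 3.11.15 with pandas 2.3.3 and matplotlib 3.10.9, and the fits were tested on simulated data.

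Members named with full statistics were up to 4 largest rises and 4 largest falls per comparison among those under the threshold whose groups did not overlap; from each other list, up to 2 genes by the same rule. A gene that this rule names is not reported here. Genes given beside these were picked after their values were seen, to complete a pair or group. The members and lists were chosen with earlier results of these data known. Replicate numbers are shared by all groups. Deviations of same-numbered libraries had a mean correlation of -0.041 in HPDE, with a range of -0.246 to 0.150. In HPNE the mean of 0.027 averaged correlations of both signs, from -0.513 to 0.565. All 3 pairs were over 0.1 only between the HPNE vesicle groups (0.292 to 0.565). Between untreated HPNE and residual medium all 3 were negative (-0.392, -0.393 and -0.513). Alternatives were a pseudocount of 0.1, no filter, size factors, the replicate block, limma voom on recovered reads, fits of only the 6 libraries compared, and leaving out libraries.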

Additional observations from a re-analysis of the deposited data

Results flagged for a closer look

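In 24 cases the treatment effect on a named member differed between the lines by limma's interaction contrast over all 24 libraries (log2 scale, HPDE minus HPNE, adjusted over 12377 genes). For PANC-1 vesicles against residual medium these were LAMB3 (1.5, adjusted p = 6.49e-05), PLOD2 (1.44, adjusted p = 3.1e-05), COL17A1 (0.52), LAMA3 (0.36), POSTN (-1.38), TGFBI (-1.14), COL4A1 (-1.11) and LAMA5 (-0.97). For PPCL-68 vesicles against residual medium they were LOXL1 (1.37, adjusted p = 7.04e-06), LAMB3 (1.18), PLOD2 (1.09), LAMA4 (1.01), COL8A1 (-2.23, adjusted p = 2.27e-06), POSTN (-1.85), TGFBI (-1.16) and SPARC (-1.03). For residual medium against untreated cells they were POSTN (1.99), COL3A1 (1.52), TGFBI (1.52), LUM (1.28), TNC (-3.02), COL8A1 (-1.67), PLOD2 (-1.58, adjusted p = 7.7e-06) and LAMB3 (-0.93).

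The effects for POSTN, LUM, COL3A1, LAMA4, LAMA3 and COL17A1 set a line that expresses the gene against a line in which it is near 0, and none of them was called by limma voom on the recovered reads. There the log2 differences were -2.52, -2.16 and 2.70 for POSTN with PANC-1 vesicles, PPCL-68 vesicles and residual medium, 1.95 for COL3A1, 1.75 for LUM and 1.68 for COL17A1, each larger than on the log2(FPKM + 1) scale, and 0.04 for LAMA3 and -0.19 for LAMA4, with adjusted p values of 0.0857 to 0.973. The remaining genes are expressed at a mean of more than 1 FPKM in both lines. Of those, LAMB3, PLOD2, TGFBI and COL4A1 differed between the lines in all 3 contrasts. In each gene the sign for residual medium against untreated cells was opposite to that for both vesicle sources against residual medium, and these contrasts share the residual medium libraries.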

How the results depend on the processing

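The named members gave 120 values, and in 1624 alternative values 1535 kept their direction and side of the threshold, 88 kept the direction but missed the threshold (65 in HPNE, 3 in HPDE, 20 between the lines) and 1 reversed: LAMA4 between the lines with PPCL-68 vesicles was -0.19 (adjusted p = 0.938) by limma voom, and the cause was not tested. A pseudocount of 0.1 also ended the line differences of COL17A1 (adjusted p = 0.143), LAMA3 (0.781), LAMA4 (0.0674) and COL3A1 (0.135). Counts of members called moved most in HPNE. With no filter on low values, where all 39 members and more weak genes are tested, they were 5 for PANC-1 and 6 for PPCL-68 vesicles against residual medium, 13 for residual medium and 1 for PANC-1 vesicles against untreated cells, and 2 between the sources. In a fit of only the 6 libraries compared, PANC-1 vesicles against residual medium gave 4. Without the 4 HPNE libraries that stood apart, the counts were 30 and 26 against residual medium, 26 and 33 against untreated cells and 27 between the sources, and 28 and 25 for the line differences in the vesicle effects. By limma voom, 9 members differed between the lines in the effect of PPCL-68 vesicles and 12 in that of residual medium; the cause was not tested.

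With the replicate block HPNE gave counts of 9, 9, 20, 6, 18 and 5, and HPDE gave 15, 15, 13, 15, 14 and 15, listed as PANC-1 and PPCL-68 vesicles against residual medium, residual medium, PANC-1 and PPCL-68 vesicles against untreated cells, and PANC-1 against PPCL-68 vesicles. The block left 38 for the line comparison and 12, 14 and 20 for the line differences in PANC-1, PPCL-68 and residual medium effects, and of the named calls it ended only that of LAMB3 in HPNE with PANC-1 vesicles against untreated cells. On leaving out 1 library at a time, the HPNE counts ranged from 5 to 16, 7 to 14, 14 to 25, 1 to 7, 16 to 18 and 2 to 4 in that order, and the HPDE counts from 13 to 15, 14 to 15, 12 to 13, 14 to 17, 13 to 16 and 15 to 16. The line comparison kept 37 to 38, and the line differences 10 to 21, 11 to 18 and 15 to 25. The 16 for PANC-1 vesicles against residual medium, and the 21 for the line difference in that effect, came without HPNE residual medium replicate 3; the 5 came without PANC-1 EV replicate 2 or 3 or residual medium replicate 1 or 2. For PANC-1 vesicles against untreated HPNE, 1 was left without PANC-1 EV replicate 3 and 2 without PANC-1 EV replicate 2 or untreated replicate 1 or 2. Between the sources 2 were left without replicate 1 or 2 of PANC-1 EV or replicate 2 or 3 of PPCL-68 EV, and 3 without PANC-1 EV replicate 3. The COL3A1 line difference with residual medium was lost without HPNE untreated replicate 1, HPNE residual medium replicate 1 or 2 or HPDE residual medium replicate 3, and that of TGFBI with PANC-1 vesicles without HPNE PANC-1 EV replicate 1 or HPNE residual medium replicate 1 or 2, at adjusted p values up to 0.0593 and 0.0540.

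Depth limits the members that are near 0 in a line: there the recovered reads were at most 329 per library in HPDE and 171 in HPNE for those not tested, and treatment effects on them were not tested within that line.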

Other observations

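Chain ratios add a view that does not depend on the library total. In HPNE the FPKM ratio of COL1A1 to COL1A2 was 1.78 to 2.43 over the 12 libraries (median 2.19), and that of COL6A1 to COL6A2 was 0.813 to 0.971 (median 0.903). COL4A1 to COL4A2 was 0.772 to 1.03 in HPNE (median 0.932) and 0.381 to 0.512 in HPDE (median 0.449), so the lines did not overlap. LAMB1 to LAMC1 was 0.326 to 0.466 in HPNE and 1.26 to 1.69 in HPDE. In HPDE the ratio of LAMA3 to LAMB3 was 0.282 ± 0.007 in untreated cells, 0.298 ± 0.021 with residual medium, 0.196 ± 0.013 with PANC-1 vesicles and 0.198 ± 0.009 with PPCL-68 vesicles (SD, n = 3 libraries each), and no vesicle library reached the untreated or residual medium range. Both genes rose with vesicles, LAMB3 by more.

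The share of all reads taken by the 39 genes was 18.1 ± 0.59% in untreated HPNE, 13.9 ± 2.76% with residual medium, 16.7 ± 1.04% with PANC-1 vesicles and 15.1 ± 0.94% with PPCL-68 vesicles. The residual medium libraries held 12.4, 12.2 and 17.1%, the last being the replicate that stood apart. In HPDE the share was 1.12 ± 0.033% in untreated cells, 1.21 ± 0.017% with residual medium, 1.65 ± 0.030% with PANC-1 vesicles and 1.93 ± 0.073% with PPCL-68 vesicles (SD, n = 3). Such a sum follows its most abundant members: LAMB3 had 79769 to 313119 reads per HPDE library and LAMA3 56452 to 149070. It does not mean that most members rose. Of the stromal genes called in HPDE against residual medium, more fell than rose with each vesicle source.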
